A study of Mus musculus with 22 samples.

Results

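Interferon-stimulated genes were examined as a set of 37 genes, listed by symbol, in medullary thymic epithelial cells (MECs) of mice. Of the 37, 34 had a probe of their own and are the members described here, among 19752 genes measured in all. Isg15 and Gbp2 had only probes shared with another gene, and Ifi44 had no probe here. Each of the 34 had 1 such probe, so no choice between probes was needed. The list was not chosen by a threshold on measured values. It was, however, chosen with earlier results of these data known, among them the falls of Ifit3 and Rsad2. Counts of members set beside all genes are therefore no independent support.

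The 22 arrays came from C57Bl/6 mice and crossed Aire genotype with treatment. Aire knockout mice (KO) received DMSO (3 arrays), Etopo (2), Topo (3) or both drugs, EtopoTopo (2), and Aire+/+ mice (WT) received the same 4 treatments with 3 arrays each. Live MECs, CD45-negative with high MHC class II and low Ly51, were sorted from treated mice, and amplified total RNA was hybridised to Affymetrix ST1.0 arrays. Etopo and Topo are common short forms of etoposide, a type II topoisomerase inhibitor, and topotecan, a topoisomerase I inhibitor, which the labels leave unexpanded. Doses and treatment times were not given in the sources used here. DMSO is the vehicle. The labels do not say how many mice gave the cells of an array, so each p-value measures the spread between arrays, which may be partly technical. The mice were 6 weeks old for 15 arrays and 4 weeks old for the other 7, which are WT DMSO 3, WT Etopo 3 and every array of both drugs.

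Several arrays stood apart from the rest or went against their labels. WT EtopoTopo 1 and 2 carry Etopo as their treatment label and were grouped by title. The 3 arrays labelled male (WT DMSO 1, WT Etopo 2 and WT Topo 2) had Xist signal within the range of the other arrays, 11.39 to 12.57 in log2 intensity. KO EtopoTopo 1 had the narrowest spread of signal over genes (3.89 log2 units between the 10th and 90th percentiles) of all 22 arrays. KO Topo 1 had the lowest median intensity (236) and a spread of 4.42, against 4.88 and 4.99 on KO Topo 2 and 3. The Aire probe did not report the deletion, since its log2 intensity averaged 12.91 ± 0.04 in KO DMSO and 12.31 ± 0.11 in WT DMSO (SD, n = 3 each). Thymic epithelial markers (7 genes) averaged 10.15 to 11.34 and mature MEC markers (12 genes) 11.04 to 11.78 in log2 intensity over the arrays. Within groups the lowest correlation between arrays was 0.963 to 0.997 over all genes. Median intensity was 236 to 264, and array signal gives no depth in counts, so the number of arrays limits the precision.

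Type I and type III interferons bind receptors that act through Jak1 and Tyk2 to phosphorylate Stat2, which works with Irf9 in the complex ISGF3. ISGF3 binds interferon-stimulated response elements in the promoters of antiviral genes, and Irf7, itself induced, raises interferon production further. In the thymus these genes are active without infection, and MECs are among the cells known to make interferon there. Aire is a transcriptional regulator that turns on genes of peripheral tissues in mature MECs.

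Promoter windows of RefSeq (GRCm38.p6, 250 bases before to 50 after the start site) were at hand for 28 of the 37 genes. The core of the response element, GAAANNGAAA or its other-strand form TTTCNNTTTC, was searched on both strands, counting overlapping matches. It occurred in 13 of these 28 genes and in 3.44% of all 32851 windows. The windows of Ifit3 and Rsad2, which had the 2 largest falls in KO MECs under DMSO, and of Ifit1 and Herc6, which changed little, are shown with the core in capitals.
Ifit3, chr19:34583279-34583578, plus strand: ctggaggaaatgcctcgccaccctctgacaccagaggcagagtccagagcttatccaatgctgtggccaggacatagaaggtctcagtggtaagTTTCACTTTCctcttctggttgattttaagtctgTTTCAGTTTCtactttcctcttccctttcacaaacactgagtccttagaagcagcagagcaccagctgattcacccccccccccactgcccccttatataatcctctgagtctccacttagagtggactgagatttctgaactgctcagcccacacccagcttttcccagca
Rsad2, chr12:26456403-26456702, minus strand: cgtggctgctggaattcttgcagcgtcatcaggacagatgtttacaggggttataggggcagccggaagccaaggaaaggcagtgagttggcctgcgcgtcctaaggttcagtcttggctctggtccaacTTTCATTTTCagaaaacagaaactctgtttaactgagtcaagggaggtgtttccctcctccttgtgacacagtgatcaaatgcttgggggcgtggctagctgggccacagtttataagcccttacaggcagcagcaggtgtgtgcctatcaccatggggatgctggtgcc
Ifit1, chr19:34640639-34640938, plus strand: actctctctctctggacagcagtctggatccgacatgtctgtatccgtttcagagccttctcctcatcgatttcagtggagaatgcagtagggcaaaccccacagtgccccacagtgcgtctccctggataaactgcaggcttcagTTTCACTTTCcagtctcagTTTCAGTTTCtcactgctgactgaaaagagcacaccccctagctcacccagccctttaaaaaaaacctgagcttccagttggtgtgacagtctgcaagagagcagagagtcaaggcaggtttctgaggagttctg
Herc6, chr6:57580742-57581041, plus strand: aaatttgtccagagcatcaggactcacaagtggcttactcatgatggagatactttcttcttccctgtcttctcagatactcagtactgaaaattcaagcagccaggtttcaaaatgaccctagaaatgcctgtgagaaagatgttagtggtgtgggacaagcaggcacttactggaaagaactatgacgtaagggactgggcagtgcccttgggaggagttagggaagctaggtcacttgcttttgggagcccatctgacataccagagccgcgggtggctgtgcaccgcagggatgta

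Ifit3 and Ifit1 each held 2 cores of the same letters, beginning 156 and 122 bases before the start site in Ifit3 and 104 and 85 bases before it in Ifit1, and Rsad2 held 1. Among genes with a window, the core was present in 4 of the 8 that were lower in KO under all 4 treatments and in 3 of the 6 that passed in none. A match is a description of letters and not a site shown to be used.

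The first comparison set KO against WT MECs within each treatment, which asks how these genes differ without Aire. A gene is called where the limma test across all genes gave a Benjamini-Hochberg adjusted p under 0.05, and changes are log2 differences, KO minus WT. Under DMSO, 17 of the 34 members (50%) were lower in KO and 0 higher, where 12% of all genes were called lower and 7.4% higher. Under Etopo 15 members were lower (44.1%) and 0 higher, beside 8.07% and 4.5% of all genes. Under Topo 14 members were lower (41.2%) and 0 higher, beside 9.62% and 5.37% of all genes. Under EtopoTopo 17 were lower (50%) and 0 higher, beside 6.12% and 4.32% of all genes. All Topo arrays came from mice of 6 weeks and all EtopoTopo arrays from mice of 4 weeks, so those comparisons lie within an age. At an unadjusted p under 0.05, either way, the members numbered 24, 19, 19 and 22 of 34 in the 4 treatments, beside 29.8%, 22.5%, 26.6% and 23.1% of all genes. In place of the 17 members called under EtopoTopo, 3 were called with only the groups compared in the fit, and 5 without WT EtopoTopo 1 and 2, the arrays whose treatment label says Etopo.

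The median change over the 34 members was -0.43 under DMSO, -0.37 under Etopo, -0.39 under Topo and -0.57 under EtopoTopo, against -0.01, 0.04, -0.04 and 0.03 over all genes. The mean log2 intensity of the members was 8.81 to 8.90 on the KO DMSO arrays, against 9.25 to 9.48 on the WT DMSO arrays. It was 8.70 to 8.75 under Etopo in KO against 9.18 to 9.38 in WT, and 8.81 to 8.95 under Topo in KO against 9.18 to 9.38 in WT. Under EtopoTopo it was 8.63 to 8.80 in KO against 9.14 to 9.51 in WT. KO and WT arrays did not overlap in this mean under any treatment. With 2 or 3 arrays in a group, many single genes also showed no overlap. All KO arrays lay below all WT arrays for 3603, 4726, 4239 and 2942 of the 19752 genes under DMSO, Etopo, Topo and EtopoTopo. They lay above all WT arrays for 2696, 5773, 2674 and 2886 genes. In sorted bulk samples, fewer cells of a type and less RNA per cell cannot be told apart.

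**Figure D1:**
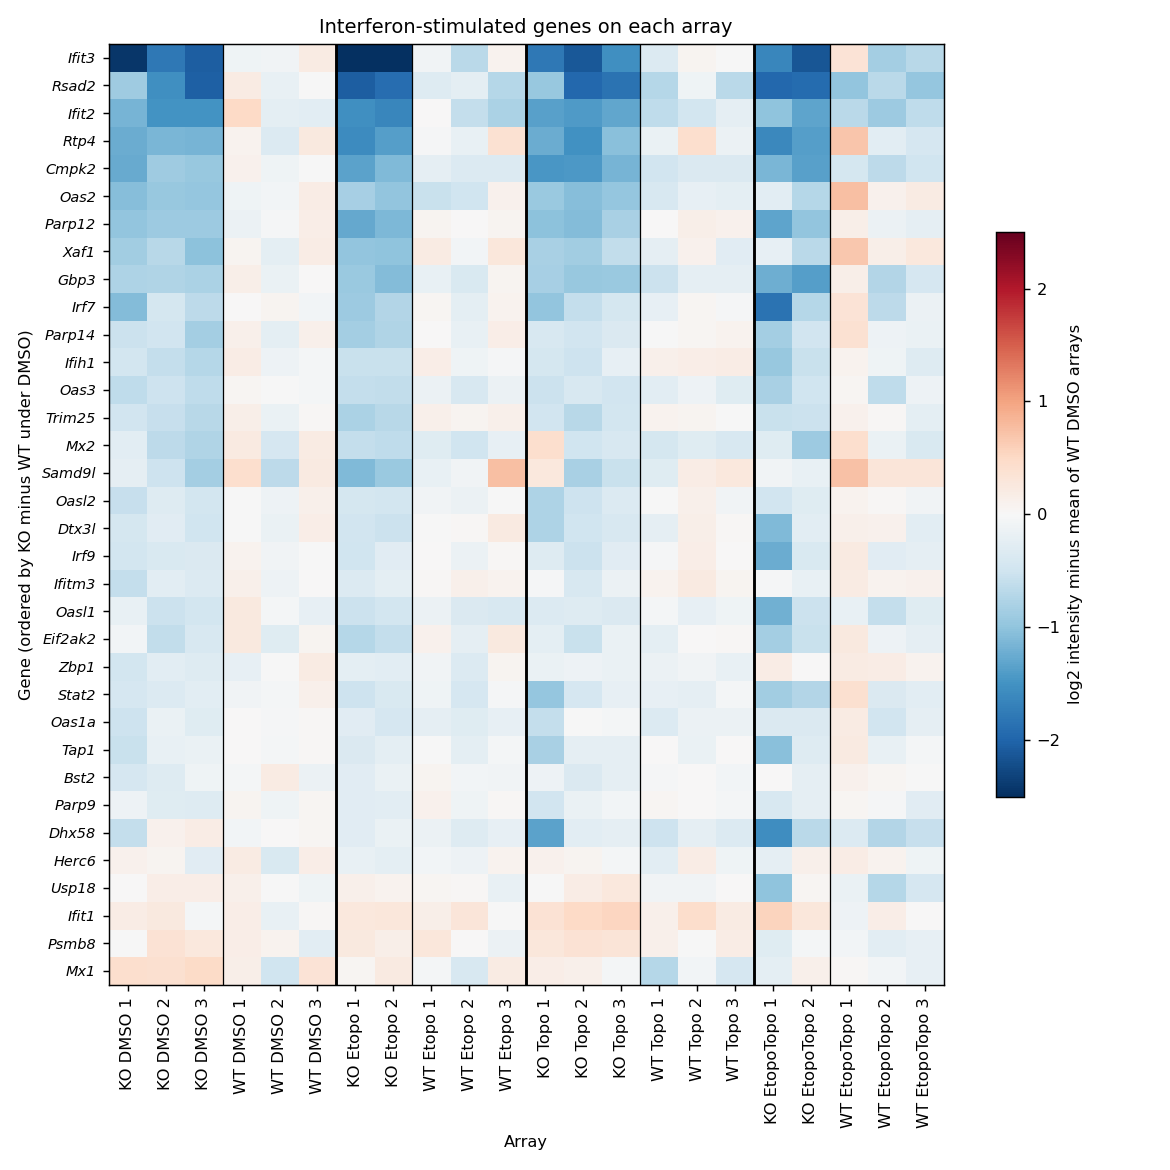
Heat map of the 34 measured interferon-stimulated genes (rows, ordered by KO minus WT under DMSO) on the 22 arrays (columns, by treatment with KO left of WT). Colour is the log2 intensity minus the mean of the WT DMSO arrays, blue for lower and red for higher. The upper rows, from Ifit3 to Gbp3, are blue on KO arrays of every treatment, while Ifit1, Psmb8 and Mx1 at the bottom are pale or red on most KO arrays.

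The 4 genotype comparisons use separate arrays, so they can be set against each other. In KO, 11 of the 34 members were called lower under all 4 treatments, as were 3.06% of all genes: Ifit3, Rsad2, Rtp4, Cmpk2, Oas2, Parp12, Xaf1, Gbp3, Parp14, Ifih1 and Trim25. Ifit2 and Dtx3l were called lower under 3 treatments, Irf7, Oasl2 and Eif2ak2 under 2, and Oas3, Samd9l, Irf9, Ifitm3, Zbp1, Stat2 and Tap1 under 1. Another 11 members were called in no treatment: Mx1, Mx2, Oas1a, Oasl1, Usp18, Herc6, Dhx58, Ifit1, Bst2, Parp9 and Psmb8. On average, 27 of the 34 members were lower in KO under every treatment, beside 22.1% of all genes. For 10 members all 10 KO arrays lay below all 12 WT arrays whatever the treatment, which held for 3.56% of all genes. These were Ifit3, Ifit2, Rtp4, Cmpk2, Parp12, Gbp3, Parp14, Trim25, Oasl2 and Irf9.

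The IFIT genes, whose proteins bind viral RNA, did not move as a family. Under DMSO, Ifit3 had log2 intensities of 7.19, 7.83 and 7.57 on the KO arrays, against 9.51, 9.54 and 9.82 on the WT arrays. Ifit3 was 4.26-fold lower in KO, the largest fall among the members, with a log2 change of -2.09 ± 0.26 (SE, limma adjusted p = 2.73e-06). Under Etopo it had 6.91 and 7.11 in KO, against 9.53, 8.94 and 9.72 in WT, a change of -2.38 ± 0.29 (limma adjusted p = 4.16e-06). Every KO array was again below every WT array. Under Topo, Ifit3 had 7.83, 7.51 and 8.09 in KO against 9.28, 9.69 and 9.62 in WT (-1.72 ± 0.26, limma adjusted p = 5.36e-05). Under EtopoTopo it had 7.99 and 7.48 in KO against 9.97, 8.77 and 8.93 in WT (-1.49 ± 0.29, limma adjusted p = 0.00132). Ifit3 thus differed between genotypes in each treatment, with a gap between the KO and WT arrays every time.

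Ifit2, a neighbour of Ifit3 on chromosome 19, had 6.70, 6.36 and 6.36 in KO DMSO against 8.36, 7.62 and 7.61 in WT DMSO (-1.39 ± 0.20, limma adjusted p = 1.81e-05). It was also lower in KO under Etopo (-1.13 ± 0.22) and Topo (-0.91 ± 0.20, limma adjusted p = 0.00102 and 0.00241). Under EtopoTopo it had 6.86 and 6.54 in KO against 7.19, 6.96 and 7.23 in WT, and the change of -0.43 ± 0.22 missed the threshold (limma adjusted p = 0.252). The arrays of the genotypes still did not overlap there, with every KO array lower, as for 2942 of all 19752 genes in that treatment. Ifit1, from the same gene cluster, went the other way on average in all 4 treatments. Under DMSO it had 11.03, 11.09 and 10.80 in KO against 11.01, 10.65 and 10.88 in WT, with overlapping arrays (0.13 ± 0.13, limma adjusted p = 0.598). Its changes under Etopo, Topo and EtopoTopo were 0.13, 0.21 and 0.41, and none passed (lowest limma adjusted p = 0.0805, under EtopoTopo). The same response element core thus stands in the promoters of a member with a called fall, Ifit3, and of one with no called change, Ifit1.

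**Figure D2:**
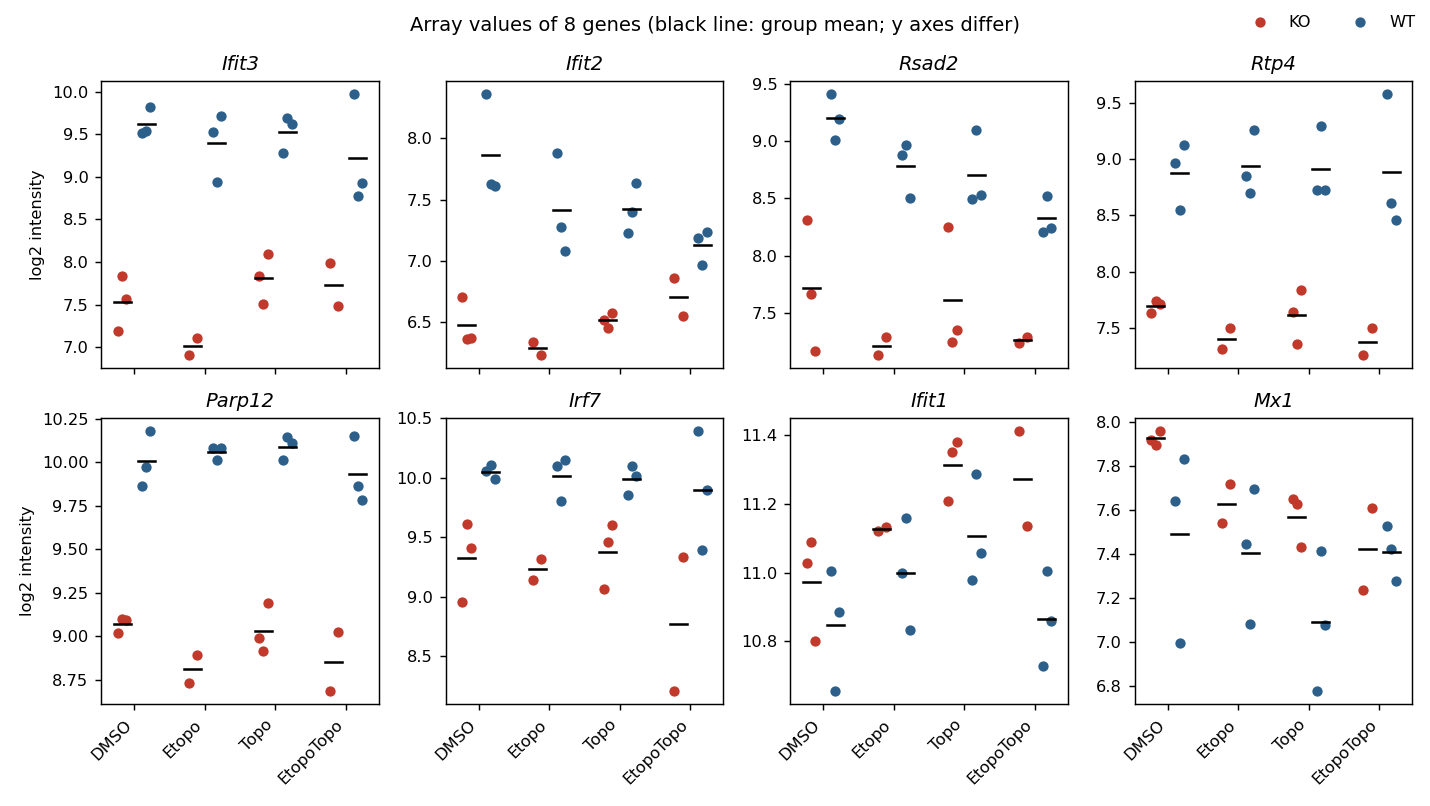
Log2 intensity of 8 interferon-stimulated genes on each array, by treatment, with KO in red left of WT in blue, black lines at group means and a y axis of its own for each gene. Within every treatment KO points lie below WT points for Ifit3, Ifit2, Rsad2, Rtp4, Parp12 and Irf7. Ifit1 and Mx1 overlap or sit higher in KO.

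Rsad2 and Cmpk2 are neighbours on chromosome 12. Rsad2 encodes viperin, an enzyme that makes an antiviral nucleotide, and Cmpk2 encodes a nucleotide kinase of mitochondria that is induced with it. Rsad2 had 8.31, 7.67 and 7.17 in KO DMSO against 9.41, 9.01 and 9.19 in WT DMSO (-1.49 ± 0.25, 2.81-fold lower, limma adjusted p = 0.000153). The KO values spread over more than a log2 unit and still lay below all 3 WT values. Cmpk2 had 7.18, 7.55 and 7.48 in KO DMSO against 8.54, 8.33 and 8.42 in WT DMSO (-1.03 ± 0.12, 2.04-fold lower, limma adjusted p = 1.92e-06). Both stayed lower in KO under each drug, Rsad2 by -1.57 ± 0.28, -1.09 ± 0.25 and -1.06 ± 0.28 and Cmpk2 by -0.92 ± 0.14, -0.95 ± 0.12 and -0.72 ± 0.14 under Etopo, Topo and EtopoTopo. All 6 of these changes were called, with limma adjusted p from 8.97e-06 (Cmpk2, Topo) to 0.0165 (Rsad2, EtopoTopo).

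Oligoadenylate synthetases make the messenger that activates RNase L. Of the 5 OAS family members, 3 were called lower under DMSO (Oas2, Oas3 and Oasl2), 1 under Etopo, 2 under Topo and 1 under EtopoTopo. Over all genes, 12%, 8.07%, 9.62% and 6.12% were called lower in these treatments. Oas2 was the only OAS member called in all 4 treatments. It had 6.89, 6.997 and 6.99 in KO DMSO against 7.84, 7.88 and 8.13 in WT DMSO (-0.99 ± 0.17, limma adjusted p = 0.000226), so the groups lay well apart. Oas3 had a change of -0.59 ± 0.14 under DMSO (limma adjusted p = 0.00376) and -0.24 to -0.42 under the drugs, where it was not called. Oasl2, a ubiquitin-like family member, changed by -0.45 ± 0.12 under DMSO and -0.55 ± 0.12 under Topo (limma adjusted p = 0.00974 and 0.00272). Oas1a (-0.33 ± 0.16, limma adjusted p = 0.163) and Oasl1 (-0.40 ± 0.16, limma adjusted p = 0.0827), which in mice restrains Irf7 translation, were not called under DMSO. A further probe, shared by Oas1a and Oas1g and left out of the fit, was lower on every KO array than on every WT array. Such a separation held for 3.56% of the genes in the fit.

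The interferon-induced GTPases differed from each other. Gbp3, a guanylate-binding protein, had 7.63, 7.65 and 7.61 in KO DMSO against 8.56, 8.24 and 8.42 in WT DMSO (-0.78 ± 0.17, limma adjusted p = 0.00171). It was called in all 4 treatments, with its largest change under EtopoTopo (-0.95 ± 0.19). Mx1 and Mx2 encode GTPases that block virus replication, and C57BL/6 mice carry a defective Mx1 allele. Mx1 had 7.92, 7.90 and 7.96 in KO DMSO against 7.64, 6.995 and 7.83 in WT DMSO. All 3 KO values were higher, but the change of 0.44 ± 0.19 was not called (limma adjusted p = 0.125). Mx2 had 6.14, 5.74 and 5.63 in KO DMSO against 6.61, 5.98 and 6.59 in WT DMSO, with overlapping arrays (-0.56 ± 0.23, limma adjusted p = 0.105).

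Among effectors of other kinds, Rtp4 and Parp12 separated the genotypes on all arrays. Rtp4, a receptor-transporter protein with antiviral activity, had 7.63, 7.74 and 7.71 in KO DMSO against 8.97, 8.55 and 9.13 in WT DMSO (-1.19 ± 0.23, limma adjusted p = 0.000688). Its fall was called under Etopo (-1.53 ± 0.26), Topo (-1.30 ± 0.23) and EtopoTopo (-1.51 ± 0.26), and under EtopoTopo it was the largest among the members. Parp12, an ADP-ribosyltransferase, had 9.02, 9.10 and 9.09 in KO DMSO against 9.86, 9.97 and 10.18 in WT DMSO (-0.94 ± 0.12, limma adjusted p = 7.78e-06). Over all treatments its KO arrays ran from 8.68 to 9.19 and its WT arrays from 9.79 to 10.18. Parp14, another ADP-ribosyltransferase, was called in all 4 treatments (-0.45 to -0.80). The ubiquitin ligase Dtx3l was called under the 3 drug treatments (-0.53 to -0.67) but not under DMSO (-0.40 ± 0.17, limma adjusted p = 0.11), and Parp9, its partner, was called in none.

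Xaf1, a pro-apoptotic factor, had 7.42, 7.59 and 7.28 in KO DMSO against 8.36, 8.05 and 8.47 in WT DMSO (-0.86 ± 0.16, limma adjusted p = 0.000488), and it was called in the other treatments as well. Ifitm3, which blocks virus entry, had 12.39, 12.72 and 12.66 in KO DMSO against 13.12, 12.86 and 13.01 in WT DMSO (-0.40 ± 0.12, limma adjusted p = 0.0196). It was not called under the drugs. Eif2ak2, the kinase PKR, was called under Etopo (-0.69 ± 0.20) and EtopoTopo (-0.67 ± 0.20). Samd9l was called under Etopo (-1.18 ± 0.32, limma adjusted p = 0.0153), and the virus tether Bst2 in no treatment (-0.16 to -0.28). Trim25, a ubiquitin ligase of the RNA-sensing pathway, was called in all 4 treatments (-0.50 to -0.85). Herc6, the ligase that attaches ISG15 in mice, and Usp18, which removes it and damps the receptor, were called in none, with changes of -0.04 ± 0.16 and 0.11 ± 0.18 under DMSO.

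The cytosolic RNA sensor Ifih1, known as MDA5, was lower in KO under all 4 treatments (-0.55 to -0.64). Its relative Dhx58, known as LGP2, was called in none. Dhx58 had 9.10, 9.81 and 9.89 in KO DMSO against 9.64, 9.72 and 9.75 in WT DMSO (-0.10 ± 0.25, limma adjusted p = 0.844), so KO DMSO 1 alone lay below the WT arrays. Zbp1, a sensor of Z-form nucleic acid, was called under DMSO (-0.35 ± 0.12, limma adjusted p = 0.0408) and in no drug treatment. Tap1, a subunit of the peptide transporter, was called under EtopoTopo (-0.68 ± 0.20, limma adjusted p = 0.0279), whereas the immunoproteasome subunit Psmb8 had changes of 0.00 to 0.22 and no call.

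**Figure D3:**
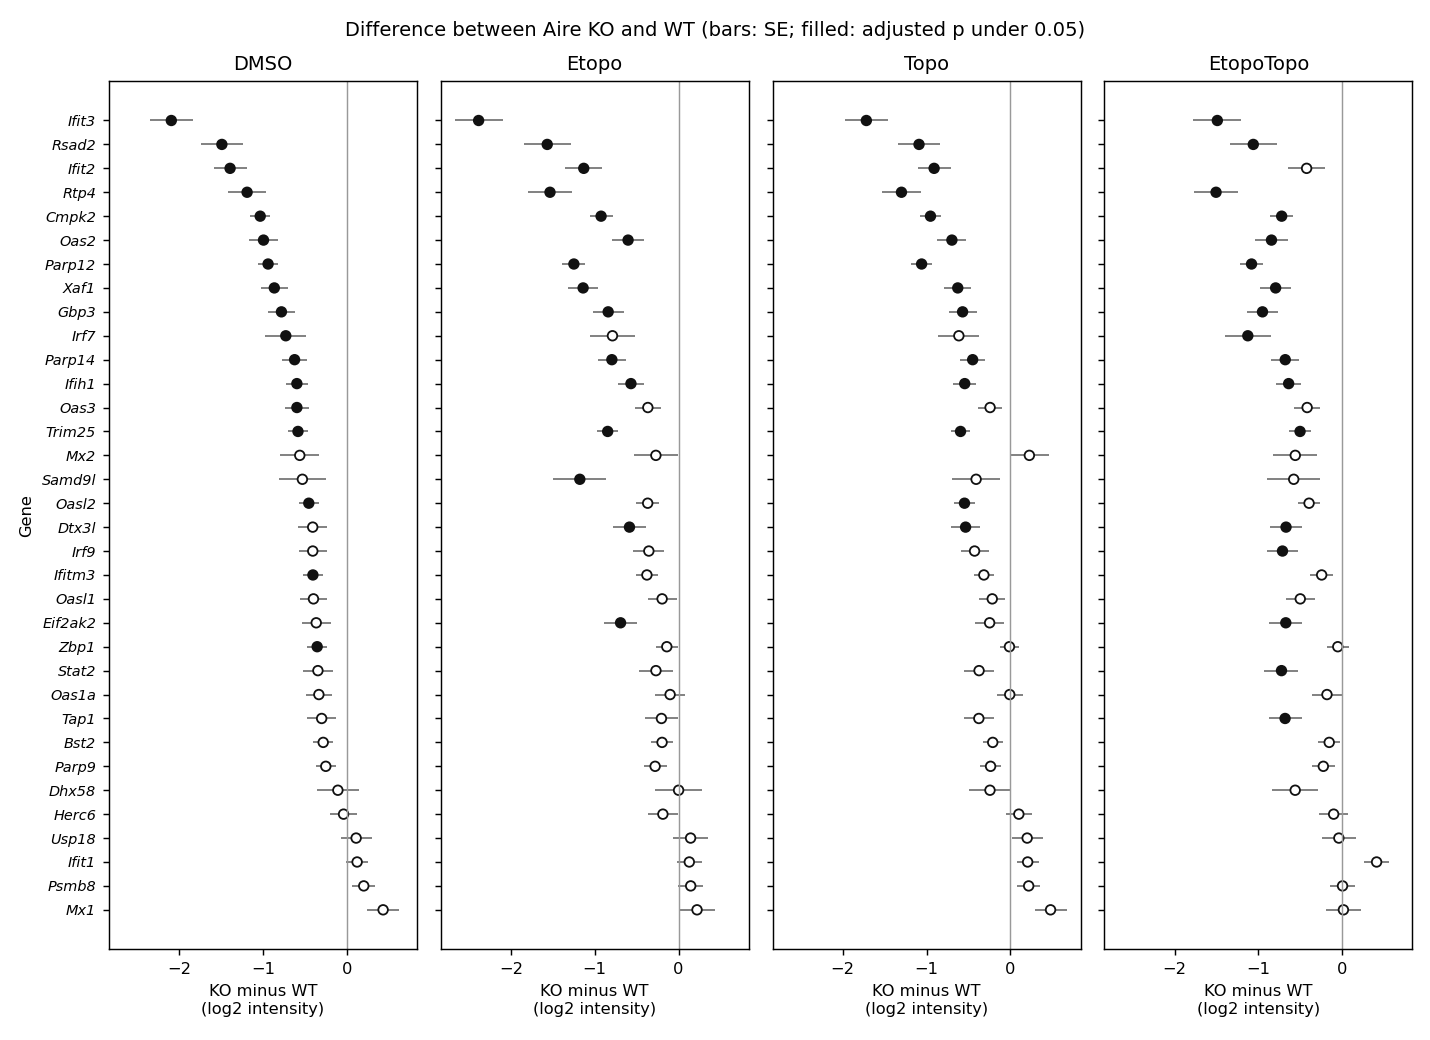
KO minus WT log2 difference of the 34 members in each treatment, with bars for the SE of the fit and filled points for an adjusted p under 0.05. Ifit3 lies farthest left under DMSO (-2.09), Etopo (-2.38) and Topo (-1.72), Rtp4 under EtopoTopo (-1.51), and the points right of 0 are open in all 4 panels.

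The 3 transcription factors on the list, Irf7, Irf9 and Stat2, had KO minus WT changes of -0.34 to -0.73 under DMSO. Irf7 had 8.96, 9.61 and 9.41 in KO DMSO against 10.05, 10.11 and 9.99 in WT DMSO (-0.73 ± 0.24, limma adjusted p = 0.0393). It was also called under EtopoTopo (-1.13 ± 0.27, limma adjusted p = 0.00849), with 8.20 and 9.33 in KO against 10.39, 9.39 and 9.90 in WT. The changes of -0.79 ± 0.27 under Etopo and -0.62 ± 0.24 under Topo missed the threshold (limma adjusted p = 0.0632 and 0.0977). Irf9 had 9.21, 9.28 and 9.30 in KO DMSO against 9.76, 9.59 and 9.66 in WT DMSO, and over the treatments its highest KO value (9.388) lay just below its lowest WT value (9.389). Its change was called under EtopoTopo only (-0.71 ± 0.19, limma adjusted p = 0.0155). Stat2 had 8.87, 8.95 and 9.02 in KO DMSO against 9.20, 9.25 and 9.42 in WT DMSO. All KO arrays lay below all WT arrays there, as for 3603 of all 19752 genes, but the change was not called (-0.34 ± 0.18, limma adjusted p = 0.217). It was called under EtopoTopo (-0.73 ± 0.20, limma adjusted p = 0.0237). Under EtopoTopo the calls of all 3 factors were lost without KO EtopoTopo 1 (limma adjusted p = 0.309 for Irf7, 0.483 for Irf9 and 0.16 for Stat2) and without WT EtopoTopo 1 (0.0575, 0.0927 and 0.14).

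Some counts depended on single arrays. Under DMSO, 13 of the 17 called members were called under every alternative run for them, and Oasl2, Irf7, Zbp1 and Ifitm3 were not. Each of these 4 lost its call without KO DMSO 1 (limma adjusted p = 0.0509, 0.193, 0.15 and 0.115) and without WT DMSO 3 (0.0584, 0.0758, 0.226 and 0.0576). Irf7 also lost it without WT DMSO 1, WT DMSO 2 or KO DMSO 3 (highest 0.117), Zbp1 without WT DMSO 2 or KO DMSO 3 (highest 0.0928) and Ifitm3 without WT DMSO 1 (0.0695). Under Etopo 9 members were called without KO Etopo 1 and 9 without KO Etopo 2. The calls lost there without 1 of the 5 arrays or another were those of Dtx3l, Eif2ak2, Gbp3, Ifih1, Oas2, Parp14 and Samd9l, with adjusted p up to 0.306 (Oas2, without KO Etopo 2). Under Topo, Dtx3l, Gbp3, Parp14 and Xaf1 lost theirs, up to 0.154 (Dtx3l, without WT Topo 2). Under EtopoTopo, where the KO group holds 2 arrays, 7 were called without KO EtopoTopo 1 and 9 without WT EtopoTopo 1, and Tap1, Dtx3l and Rsad2 had an adjusted p of 0.514, 0.59 and 0.0972 without KO EtopoTopo 1. With 1 array left in a group, its spread was taken from the other groups. Of the 11 members called in all 4 treatments, 4 kept every call whichever array was left out, and these were Ifit3, Rtp4, Cmpk2 and Parp12.

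The interferon system around the members was followed in gene lists chosen with earlier results of these data known. Of 21 interferon genes listed, 16 were measured and 0 were called between KO and WT under any treatment (limma), with 11, 4, 6 and 3 of 16 lower on average in the 4 treatments. Ifnb1, the interferon beta gene, had 5.83 ± 0.12 in KO DMSO and 6.01 ± 0.43 in WT DMSO (SD, n = 3 each). Both Ifnb1 means lay within the range of the highest Y-linked signal, 5.15 to 6.07 over the arrays. At so low a signal, the lack of a call does not show that Ifnb1 expression was equal. Ifnl2, a type III interferon, had 9.28 ± 0.03 in KO DMSO and 9.31 ± 0.25 in WT DMSO. All 6 receptor subunits were measured, and 0 were called under DMSO. Under Etopo, Topo and EtopoTopo, 16.7%, 33.3% and 33.3% of the 6 were called lower, beside 8.07%, 9.62% and 6.12% of all genes. Ifnar2, a chain of the type I receptor, was lower in KO under Etopo (-0.54 ± 0.13), Topo (-0.45 ± 0.12) and EtopoTopo (-0.42 ± 0.13, limma adjusted p = 0.0437). Ifngr2, a chain of the interferon gamma receptor, was lower under Topo (-0.56 ± 0.18) and EtopoTopo (-0.76 ± 0.21). Ifnar1 was not called, with 9.996 ± 0.135 in KO DMSO and 9.83 ± 0.09 in WT DMSO (SD, n = 3 each). Of 9 measured genes of receptor signalling, among them Jak1, Tyk2 and Socs1, 1 was called in any treatment, Stat3 under Etopo (0.46 ± 0.15, limma adjusted p = 0.0446). That is 11.1% of the list, beside 4.5% of all genes called higher under Etopo.

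Of 16 measured genes of nucleic acid sensing upstream of interferon, 1 was lower and 1 higher in KO in every treatment. Each is 6.2% of the list. Over all genes, 12%, 8.07%, 9.62% and 6.12% were called lower in the 4 treatments, and 7.4%, 4.5%, 5.37% and 4.32% higher. The counts of this list thus do not exceed those of all genes by much in any treatment. The lower gene was Ddx58, the RNA sensor RIG-I, with 8.74 ± 0.22 in KO DMSO and 9.51 ± 0.32 in WT DMSO (SD, n = 3 each) and a change of -0.76 ± 0.20 (limma adjusted p = 0.00926). Under Etopo, Topo and EtopoTopo it changed by -1.25, -0.90 and -1.15. The higher gene was Tlr9, an endosomal DNA sensor, at 0.55 ± 0.14 under DMSO and 0.53 to 0.86 under the drugs. The RNA sensors Ifih1 and Ddx58 were thus both lower in KO in all 4 treatments, and their relative Dhx58 was called in none.

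Further interferon-induced genes outside the 37 had calls in both directions. Of 41 measured of 48 listed, 9 were lower and 3 higher in KO under DMSO, 8 and 1 under Etopo, 9 and 2 under Topo, and 11 and 2 under EtopoTopo, with medians of -0.18, -0.18, -0.11 and -0.16. Under DMSO this is 22% lower and 7.3% higher, beside 12% and 7.4% of all genes, so the share higher is near that of all genes. Under Etopo, Topo and EtopoTopo, 19.5%, 22% and 26.8% were lower, beside 8.07%, 9.62% and 6.12% of all genes. The shares higher were 2.4%, 4.9% and 4.9%, beside 4.5%, 5.37% and 4.32%. Those lower in all 4 treatments were Ifitm1 (-1.58 ± 0.13 under DMSO), Ddx60 (-1.41 ± 0.21), Ifi27l2a (-0.92 ± 0.30), the chemokine Ccl5 (-0.79 ± 0.19), Phf11d (-0.75 ± 0.18) and Oas1b (-0.50 ± 0.16). Sp100, a component of nuclear bodies, was higher in all 4 (0.78 ± 0.17 under DMSO), Ifi205 in 3 (1.18 ± 0.24 under DMSO), and Parp11 under DMSO alone (0.48 ± 0.16). Of 18 measured of 24 genes associated with interferon gamma, 3 were lower and 2 higher under DMSO, 3 and 1 under Etopo, 1 and 4 under Topo, and 3 and 0 under EtopoTopo. Under DMSO this is 16.7% lower and 11.1% higher, near the 12% and 7.4% of all genes for a list of 18. Under Etopo it is 16.7% lower and 5.6% higher, beside 8.07% and 4.5% of all genes. Under Topo it is 5.6% lower and 22.2% higher, beside 9.62% and 5.37%. Under EtopoTopo it is 16.7% lower and 0% higher, beside 6.12% and 4.32%. Irgm1, an immunity-related GTPase, was lower in all 4 (-0.63 ± 0.16 under DMSO), and the factors Irf8 (0.71 ± 0.14) and Ciita (0.51 ± 0.17), the regulator of MHC class II genes, were higher under DMSO.

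**Figure D4:**
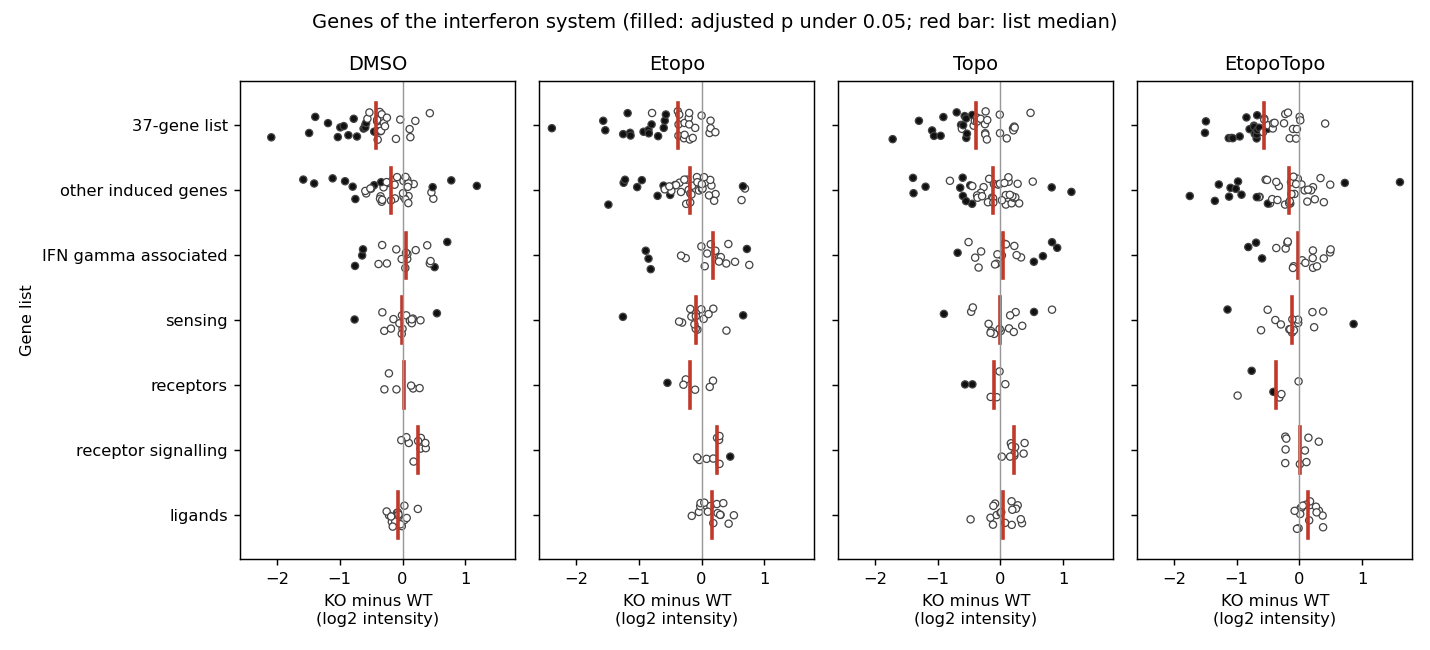
KO minus WT log2 difference of each measured gene in the 37-gene list and 6 lists of the interferon system, by treatment, with filled points for an adjusted p under 0.05 and red bars at list medians. The median of the 37-gene list lies between -0.57 and -0.37, whereas interferon ligands have only open points and the other induced genes have calls on either side of 0 in every panel.

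Leukocytes express many of these genes, so their markers are given beside the members. CD45 (Ptprc) had 7.48 to 10.04 in KO DMSO and 7.35 to 8.98 in WT DMSO, and 0 of 11 thymocyte markers were called between the genotypes under DMSO. Thymocyte marker means were 7.21 to 8.80 in KO DMSO and 7.41 to 8.38 in WT DMSO, with the high values on KO DMSO 1 and WT DMSO 1. Without that pair of arrays, 13 members were called under DMSO. Of 12 macrophage and dendritic cell markers, 3 were lower in KO under DMSO, Adgre1 (-1.61 ± 0.20), Itgam (-0.98 ± 0.12) and Xcr1 (-0.92 ± 0.12), and 1 was higher, Cd68 (0.72 ± 0.13). The marker counts under DMSO stand beside 12% of all genes called lower and 7.4% called higher. The mean of the 12 was 7.90 to 8.04 in KO DMSO and 8.16 to 8.40 in WT DMSO. Under Etopo that mean was 7.91 to 7.95 in KO and 8.07 to 8.23 in WT, again lower in KO with no overlap. The ranges overlapped under Topo (7.99 to 8.32 in KO and 8.08 to 8.10 in WT) and EtopoTopo (8.01 to 8.08 in KO and 7.94 to 8.05 in WT). Of 6 plasmacytoid dendritic cell markers 1 was lower under DMSO (Ly6d, -1.28 ± 0.17), of 4 B cell markers 1 (Cd79a, -1.02 ± 0.16), and of 8 stromal and endothelial markers 2. The means of these lists were 8.82 to 9.04, 7.74 to 8.0 and 7.56 to 7.83 in KO DMSO, and 9.02 to 9.23, 7.92 to 8.2 and 7.83 to 8.11 in WT DMSO. The plasmacytoid dendritic cell mean overlapped under DMSO and was lower in all KO arrays under each drug treatment. It was 8.802 to 8.803 in KO and 8.93 to 9.14 in WT under Etopo, and 8.72 to 8.85 and 9.11 to 9.19 under Topo. Under EtopoTopo it was 8.79 to 8.91 in KO and 9.02 to 9.03 in WT. Ly6d had the largest fall of the 6 markers in these 3 treatments (-1.64, -1.36 and -1.48). The median change of the 6 was 0.08, -0.21 and 0.04, with 3, 4 and 2 of them lower in KO. The B cell mean did not overlap under Etopo (7.84 to 7.88 in KO and 7.99 to 8.02 in WT), nor the stromal mean under Topo (7.52 to 7.79 in KO and 7.86 to 7.99 in WT). Of the 4 B cell markers, 2 were lower on average in KO under Etopo, Cd79a most (-0.66), and 2 were higher, Cd79b most (0.24). Single genes without overlap were common, with all KO arrays lower for 4726 of 19752 genes under Etopo and 4239 under Topo. The mean of 7 thymic epithelial markers moved with the members too and lay lower in KO in every treatment without overlap. Single markers went both ways, with 3, 3, 1 and 1 of the 7 higher in KO under DMSO, Etopo, Topo and EtopoTopo. Called lower were 0, 3, 2 and 2, beside 12%, 8.07%, 9.62% and 6.12% of all genes. Krt5 had the largest fall each time (-0.62, -1.41, -1.18 and -1.90). The mean was 10.89 to 11.06 in KO and 11.15 to 11.18 in WT under DMSO, and 10.81 to 10.94 in KO and 11.19 to 11.24 in WT under Etopo. It was 10.68 to 10.97 in KO and 11.08 to 11.23 in WT under Topo, and 10.15 to 10.72 in KO and 10.83 to 11.34 in WT under EtopoTopo. The part of these markers in the members' change was not tested. Among 12 markers of mature MECs, Ccl22 (-1.23 ± 0.22) and Ccl17 (-1.31 ± 0.26) were lower, Cd80 (0.44 ± 0.12) was higher and the mean was 11.65 to 11.78 in KO DMSO and 11.62 to 11.78 in WT DMSO.

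The second comparison set each drug treatment against DMSO within a genotype, which asks whether the inhibitors alter the same genes. The 3 drug contrasts of a genotype share its DMSO arrays and are given side by side. With Etopo 0 members were called in either genotype by limma, beside 0% of all genes in KO and 0.00506% in WT, and at an unadjusted p under 0.05 the members numbered 0 in KO and 2 in WT, beside 3.58% and 5.55% of all genes. With Topo 0 members were called in either genotype, beside 1.03% of all genes in KO and 2.21% in WT, and 2 members in KO and 3 in WT had an unadjusted p under 0.05, beside 11.6% and 11.5% of all genes. The median change of the members was -0.10 in KO and -0.04 in WT with Etopo, and 0.04 in KO and -0.06 in WT with Topo.

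With both drugs, 3 members were lower in WT EtopoTopo than in WT DMSO and 0 higher, beside 7.28% and 3.6% of all genes. At an unadjusted p under 0.05 there were 7 members, beside 26.1% of all genes. Rsad2 had 8.21, 8.52 and 8.25 in WT EtopoTopo against 9.41, 9.01 and 9.19 in WT DMSO (-0.88 ± 0.25, limma adjusted p = 0.0276). Ifit2 had 7.19, 6.96 and 7.23 in WT EtopoTopo against 8.36, 7.62 and 7.61 in WT DMSO (-0.74 ± 0.20, limma adjusted p = 0.0187). Cmpk2 had 7.995, 7.782 and 7.945 in WT EtopoTopo against 8.54, 8.33 and 8.42 in WT DMSO (-0.53 ± 0.12, limma adjusted p = 0.00809). In each case the treated arrays lay below the DMSO arrays, but such separation was not counted over all genes for drug contrasts. Between genotypes under DMSO, also with 3 arrays in each group, all KO arrays lay lower for 3603 of 19752 genes. The share of members lower (8.82%) was near that of all genes. All EtopoTopo arrays came from the younger mice, and with age as a covariate 0 members were called. Without WT DMSO 1 or without WT EtopoTopo 2, 1 member was called.

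In KO MECs, both drugs together gave 3 members lower and 1 higher than DMSO, beside 11.7% and 11.1% of all genes. At an unadjusted p under 0.05 there were 12 members, beside 41.4% of all genes. The treated KO mice here were 4 weeks old and the KO mice given DMSO were 6 weeks old, so within KO age and drug cannot be told apart. With age as a covariate, estimated from the other arrays, 0 members were called, and with only the groups compared 0 were called. Dhx58 had 8.15 and 9.04 in KO EtopoTopo against 9.10, 9.81 and 9.89 in KO DMSO (-1.01 ± 0.28, limma adjusted p = 0.0183). Usp18 had 10.95 and 12.01 in KO EtopoTopo against 11.97, 12.12 and 12.13 in KO DMSO (-0.59 ± 0.21, limma adjusted p = 0.0448), so 1 treated array lay within the DMSO range. Gbp3 had 7.20 and 7.04 in KO EtopoTopo against 7.63, 7.65 and 7.61 in KO DMSO, a change of -0.51 ± 0.19 just under the threshold. Zbp1 had 10.22 and 10.05 in KO EtopoTopo against 9.57, 9.77 and 9.71 in KO DMSO (0.45 ± 0.13, limma adjusted p = 0.0234). Without KO EtopoTopo 1, the array of narrow signal range, 0 members were called, without KO DMSO 3 there were 0, without KO DMSO 2 there was 1, without KO DMSO 1 there were 2, and without KO EtopoTopo 2 there were 13.

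The difference between genotypes in each drug effect was tested as an interaction, the KO effect minus the WT effect. By limma 0 of 34 members were called for Etopo, Topo or EtopoTopo, beside 0%, 0.0759% and 2.46% of all genes, and 0, 1 and 1 members had an unadjusted p under 0.05, beside 4.59%, 4.74% and 14.7% of all genes. The smallest p was that of Ifit2 for EtopoTopo. Ifit2 changed by 0.23 ± 0.22 in KO and -0.74 ± 0.20 in WT, a difference of 0.96 ± 0.29 (limma adjusted p = 0.0964). Without KO EtopoTopo 2, 5 members passed this test.

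**Figure D5:**
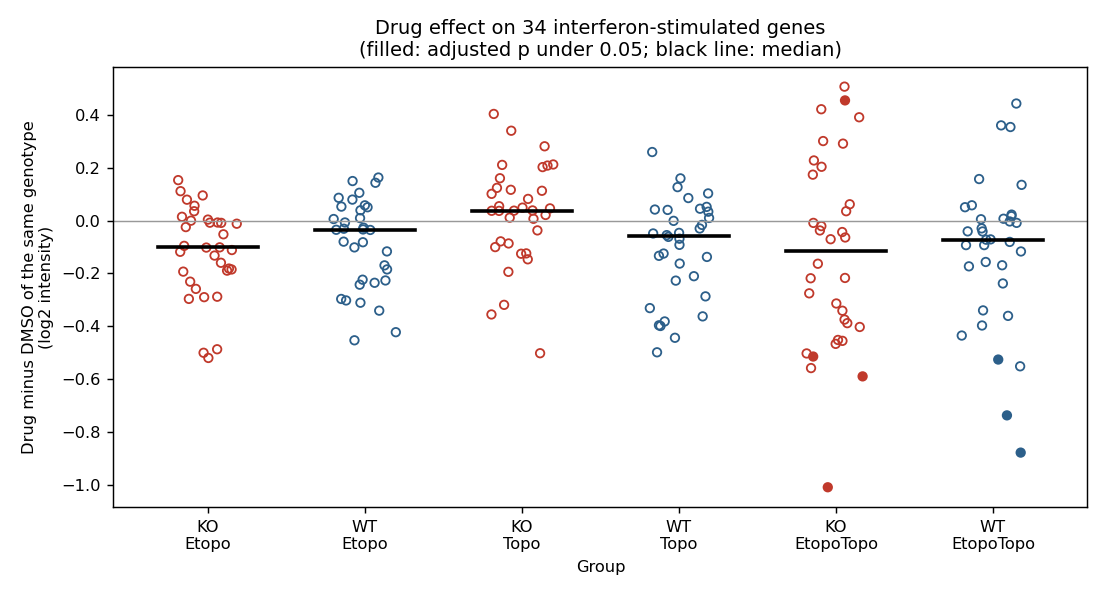
Drug minus DMSO log2 difference of the 34 members in each genotype and treatment, KO in red left of WT in blue, with filled points for an adjusted p under 0.05 and black lines at medians. Medians lie between -0.12 and 0.04, and filled points appear with EtopoTopo only, 4 in KO and 3 in WT.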

How the data were processed

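RNA of sorted MECs was measured on 22 arrays in 8 groups. The deposited file gives a linear intensity for each probe on each array; the submitters' processing notes name Affymetrix Power Tools and RMA, with no versions. The planned design assumed log2 values, so log2 of the deposited values was taken, with no pseudocount and no further normalization. Of 24922 probes, 21425 had 1 gene symbol in the platform annotation, 1399 several and 2098 none here; 21347 of their Entrez identifiers were in RefSeq GRCm38.p6, and 19752 genes remained. The 34 members measured were fitted with all genes in R 4.3.3 (limma 3.58.1, with version 1.17.8 of data.table): lmFit with 1 mean per group, eBayes (14 residual, 7.22 prior degrees of freedom) and Benjamini-Hochberg adjustment over all genes, called at an adjusted p under 0.05. The script was tested on simulated data.

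Members and lists were chosen with earlier results of these data known, among them the falls of Ifit3 and Rsad2, so their counts are no independent support. Every member could be named. Array values were given for up to 8 called members with the largest fall in KO under DMSO, members with the highest and lowest mean, members called in a drug contrast, the 3 transcription factors and a few members without a call. Other genes were named if called between genotypes, with interferon genes and receptors besides. Alternatives were quantile normalization, a filter at the median level, the mean of all probes, only the groups compared, an intensity trend, age as a covariate, a replicate block and leaving out arrays.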

Additional observations from a re-analysis of the deposited data

How the results depend on the processing

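Of 233 recomputed counts of called members, 204 stayed within 1.5 times the reported count and 29 did not. Under Etopo 8 members, and under Topo 9, were called with genes at or above the median level only, where fewer members were tested, and leaving out 1 array gave 9 to 14 under Etopo. Under DMSO, that filter left 1870 genes called in all. Under EtopoTopo, 3 members were called with only the groups compared, 5 without WT EtopoTopo 1 and 2, and 10 without KO Topo 1 and KO EtopoTopo 1 (chosen after seeing the data), and leaving out 1 array gave 7 to 21. For WT EtopoTopo against WT DMSO, 1 member was called with the median filter, 0 with age as a covariate, 0 without WT EtopoTopo 1 and 2, 1 without WT DMSO 1 and KO DMSO 1, 0 without the 3 arrays labelled male and 5 without KO Topo 1 and KO EtopoTopo 1 (the last 2 settings chosen after seeing the data). Leaving out 1 array gave 1 to 4. For KO EtopoTopo against KO DMSO, 0 were called with only the groups compared, 0 with age as a covariate, 2 without the arrays labelled male, 0 without KO Topo 1 and KO EtopoTopo 1, and 0 to 13 with 1 array left out. The interaction for EtopoTopo gave 1 with age as a covariate and 0 to 5 with 1 array left out. In KO against WT under DMSO, Dhx58 had a log2 change of 0.11 without WT DMSO 1 and KO DMSO 1 and -0.25 to 0.15 with 1 array left out. Herc6 had 0.038 with age as a covariate, 0.063 without the arrays labelled male and -0.22 to 0.091 with 1 array left out. Neither was called. The cause was not tested. With a replicate block, 17, 13, 13 and 17 members were called in KO against WT under DMSO, Etopo, Topo and EtopoTopo, and 2 in KO EtopoTopo against KO DMSO. Deviations from the group means of same-numbered arrays in different groups correlated at a median of -0.05 over 71 pairs (-0.56 to 0.59). For arrays of other numbers the median was 0.001 over 140 pairs (-0.50 to 0.56). A median over all pairs cannot show whether some arrays were paired, and the main fit used no pairing. Array signal gives no count of molecules.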

Other observations

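Probes shared with another gene were left out of every count above, and their values follow without a test. The probe of Gbp2 and Gbp2b had log2 intensities of 8.87, 8.79 and 8.51 in KO DMSO against 9.73, 9.17 and 9.42 in WT DMSO. The probe of Isg15 and Gm9706 had 6.87, 6.54 and 6.75 in KO DMSO against 6.84, 6.83 and 6.79 in WT DMSO, with overlapping arrays. The probe of Oas1a and Oas1g had 9.01, 9.08 and 9.12 in KO DMSO against 9.66, 9.57 and 9.65 in WT DMSO. Over all treatments it had 8.84 to 9.35 on KO arrays and 9.40 to 10.06 on WT arrays, without overlap, unlike the probe of Oas1a alone. All KO arrays lay below all WT arrays for 3.56% of the genes in the fit. How much each gene of a pair adds to such a probe was not tested.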
